A study of Homo sapiens with 2 samples.

Results

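The cadherins described here are 10 genes of this family, CDH1, CDH2, CDH3, CDH4, CDH6, CDH7, CDH9, CDH11, CDH12 and CDH13, chosen by name among the 30238 gene names of the array and covered by 17 of its 41000 probes. RNA was measured in drug-resistant derivatives of A2780, a human ovarian carcinoma cell line, on two-colour arrays that hybridize a resistant line and its control together. A2780CBN was selected in carboplatin, a DNA-crosslinking platinum drug, with a dose of 22.2 µM in the labels. A2780CBNDXL was selected in carboplatin together with docetaxel, a drug that binds microtubules, and the labels give 8.02 µM for the combination, a value that differs from the terminal dose in the methods. Each line was set against A2780CC, its own control derived from the same A2780 cells and cultured in parallel to account for prolonged culture. Arrays of A2780DXL were not analysed here. Each line is represented by 1 sample, a pool of 3 RNA isolations, which was hybridized 4 times, once in each dye orientation on each of 2 slides. The SD between arrays therefore holds the error of labelling and hybridization but none between cultures, and no test across cultures was made. In total RNA of a culture, more cells that express a gene and more RNA of that gene per cell cannot be told apart.

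Cadherins are cell surface proteins that bind one another between neighbouring cells in the presence of calcium, and through catenins at their cytoplasmic tail they are linked to the actin cytoskeleton. The classical type I members are CDH1 (E-cadherin, of epithelia), CDH2 (N-cadherin, of neural and mesenchymal cells), CDH3 (P-cadherin, of placenta and basal epithelia) and CDH4 (R-cadherin, of retina and brain). CDH6 (K-cadherin, of fetal kidney), CDH7, CDH9, CDH11 (OB-cadherin, of osteoblasts and other mesenchymal cells) and CDH12 are classical type II members, and several of these are known from nervous tissue, kidney or bone. CDH13 (T-cadherin) has no cytoplasmic tail and is held in the membrane by a lipid anchor.

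The probes on which the results below turn were read from the array files, with positions on NCBI36. Cadherins are similar in sequence, so each stretch is shown with capitals on the longest run of bases that it shares with a probe of any other gene. Each probe is shown by 30 bases around that run, and the positions are those annotated for the probe, whose place in exon or UTR was not looked up. For A_32_P10936 the annotated positions span fewer bases than its length of 60. The CDH7 probes A_24_P382287 and A_23_P153146 lie at chr18:61680935-61680994 and chr18:61699003-61699062 on the plus strand, the CDH11 probe A_23_P152305 at chr16:63538370-63538429 on the minus strand, the CDH9 probe A_23_P92999 at chr5:26916747-26916806 on the minus strand, and the CDH12 probes A_32_P10936 and A_23_P144847 at chr5:21787069-21787125 and chr5:21787869-21787928, both on the minus strand.
CDH7 A_24_P382287: actatctgcCAATTTTCATTGTggacagtg
CDH7 A_23_P153146: tgactacctAAGTGACTGGGGAcctcgctt
CDH11 A_23_P152305: tgccagataTAACTGTCTTGTttcagtgag
CDH9 A_23_P92999: taaTAACCAGTTCACCCtctttgcctaaca
CDH12 A_32_P10936: atagcgacACTCTGACTCTCCTCattcctt
CDH12 A_23_P144847: ctctctgtttacctcgtCAGAGACCACCCA

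Over the 17 cadherin probes the longest run shared with a probe of another gene was 12 to 15 bases with a median of 13 bases, and over all 41000 probes the median was also 13 bases. Among the 125 pairs of probes of different members, the longest shared run was 9 bases, between CDH6 and CDH9. Probes were compared only with probes and not with the transcripts of other genes. Binding of a probe to another cadherin transcript was therefore not tested.

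The arrays were of similar quality, with 59.8 to 67.5% of spots well above background in a channel and no saturated spot. On array 1 of A2780CBNDXL the coefficient of variation of the spike-in controls was 19.5% (green) and 19.99% (red), against 3.56 to 4.87% on the other arrays, and values without it are given where they matter. Signals are the processed intensities of the scanner software in arbitrary units, and they are compared between channels and arrays for 1 probe, never between probes. A gene is described as higher or lower when its mean log2 ratio of line over control is at least 1 in size (2-fold), keeps 1 sign over the 4 arrays, and rests on a probe that is well above background on all 4 in at least 1 of its channels. Where a gene has several probes, the brightest stands for it.

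In A2780CBN, CDH3 and CDH7 were higher and CDH9 was lower than in the control, which is 3 of the 5 members that passed the filter on dim probes. Of all 17951 genes that passed it in this line, 12.6% were called, 8% as higher and 4.55% as lower. In A2780CBNDXL, CDH7 and CDH11 were higher and CDH12 was lower, which is 3 of 4 members that passed, against 16.9% of 17116 genes, 7.7% as higher and 9.2% as lower. CDH7 was the member called in both lines. The 3-way ANOVA of the methods with the same fold limit listed the same members, beside 12.4% and 15.6% of all genes, with the error between arrays as its error, and limma listed them beside 12.6% and 16.9%. After normexp background correction and loess of the raw signals, which draws dim ratios towards 0, no member was called in A2780CBN and CDH7 and CDH11 were called in A2780CBNDXL. With so few members, and with some passing the filter only through the channel in which they were high, these counts are a description.

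**Figure D1:**
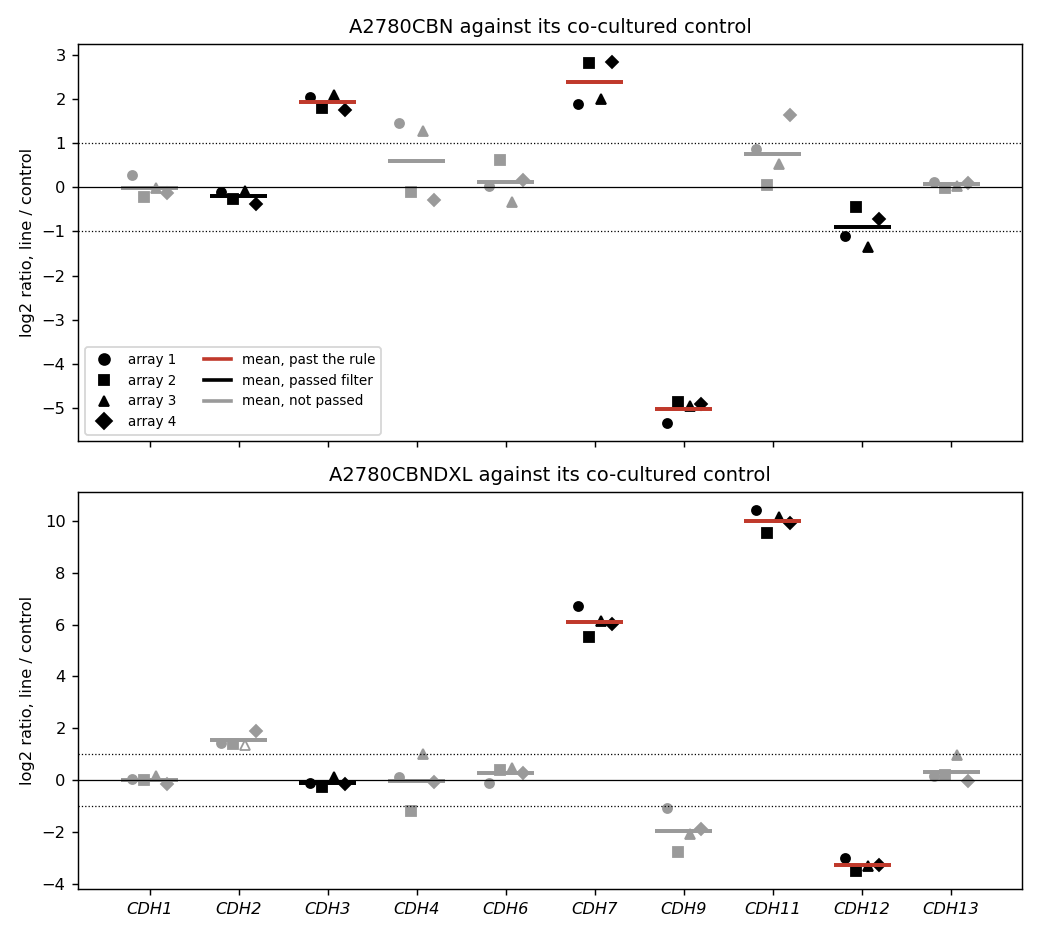
Log2 ratio of resistant line over co-cultured control (y axis) for the probe that stands for each of the 10 cadherins (x axis), with 1 point for each of the 4 arrays, a bar for the mean, and dotted lines at 2-fold. Red bars mark genes past the 2-fold rule, black those that passed the filter, grey those that did not, and the open triangle of CDH2 is the spot left out as an outlier. CDH7 lies above 0 in both lines, at 2.38 and 6.10, and CDH11 lies at 10.00 in A2780CBNDXL.

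CDH1 was not well above background in either channel on any of the 8 arrays, although its signal is the mean of 10 spots. Its mean signals lay between 5.55 and 6.44 in the lines and their controls. CDH4, with 3 probes, and CDH13, with 1 probe, were not well above background in any channel either, and their signals on single arrays reached at most 15.0. These values give no ratio for CDH1, CDH4 or CDH13, and a low transcript level was not detectable with these probes. CDH6, with 4 probes, was above background at 1 probe, in the A2780CBN channel of 1 array only, where its signal was 32.6 against 4.87 to 17.3 in the line channels of the other arrays.

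CDH2 was measured in every channel. In A2780CBN its signal was 1440.0, 1256, 1121 and 1095 on the 4 arrays, against 1540.1, 1511, 1190.4 and 1415 in the control, so the ranges overlapped. The log2 ratio was -0.21 ± 0.14 (SD, 4 arrays), below 0 on every array but far from 2-fold. In A2780CBNDXL its signal was 12552, 9971 and 9748, against 4595, 3784 and 2610.4 in the control, on the 3 arrays on which the spot was usable. Every line value lay above every control value, and the log2 ratio was 1.55 ± 0.28 on these arrays. The spot on array 3 was marked as an outlier by the software, so CDH2 is not among the called genes of A2780CBNDXL. With that spot kept the mean was 1.53, past the 2-fold rule, and without array 1 the ratio was 1.65.

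CDH3 was dim. In A2780CBN its signal was 116, 113, 94.8 and 99.0, against 28.2, 32.5, 22.4 and 29.4 in the control, whose value on array 3 was not well above background. The line values lay above all control values, with a log2 ratio of 1.92 ± 0.17 and a fold of 3.78. In A2780CBNDXL the signals of both channels overlapped, with means of 34.2 and 36.8 and a log2 ratio of -0.09 ± 0.16.

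CDH7, a type II cadherin known from the developing nervous system, was higher in both lines. In A2780CBN its signal was 177, 271, 155 and 228, against 47.7, 38.7, 38.9 and 31.98 in the control. The channels did not overlap, and the log2 ratio was 2.38 ± 0.51. In A2780CBNDXL its signal was 3924, 6644, 5102 and 5225, against 37.1, 143, 71.7 and 81.2 in the control, where array 1 was not well above background. The log2 ratio was 6.10 ± 0.49, or 5.96 without array 1. The other probe, A_24_P382287, gave smaller ratios in the same direction, 1.05 ± 0.42 in A2780CBN and 4.13 ± 0.24 in A2780CBNDXL. This probe gave the smaller ratio on each of the 8 arrays, and both probes passed the 2-fold rule in both lines. Neither was calibrated, so which of the 2 sizes is closer to the transcript was not tested. By quantitative PCR against the parent line, the paper reports CDH7 as significantly higher in A2780CBNDXL but not significantly different in A2780CBN.

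CDH11 was measured in the dual-resistant line alone. In A2780CBNDXL its signal was 11186, 11304, 11536 and 8809, while its control gave 8.17, 15.4, 10.3 and 9.06, not well above background on any array. Set against the lowest signal that counts as above background, CDH11 was at least 536-fold higher in A2780CBNDXL than in its control. The log2 ratio of the processed signals was 10.00 ± 0.38, and 9.92 without array 1. In A2780CBN both channels stayed below that level, with signals of 5.68 to 12.5 in the line and 4.04 to 5.51 in the control. Since CDH11 has 1 probe on this array, no further probe bears on the value.

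Markers of fibroblasts, which are known to express CDH11, were higher in A2780CBNDXL. DCN was also higher in A2780CBN, where CDH11 stayed below background. The summed signal of DCN and COL1A1, both of 2 such markers looked up, was 6234 to 7608 in A2780CBNDXL against 564 to 915 in its control, and 582 to 723 in A2780CBN against 223 to 312. DCN, a matrix proteoglycan, had log2 ratios of 2.21 ± 0.46 in A2780CBN and 3.62 ± 0.29 in A2780CBNDXL, and COL1A1, a fibrillar collagen chain, 0.99 ± 0.08 and 2.04 ± 0.20. PTPRC of leukocytes and PECAM1 of endothelium were not well above background on any array. Their part in the CDH11 and CDH7 values was not tested.

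CDH9 was lower in A2780CBN, in the channel where it was dark. Its signal was 5.07, 5.99, 5.55 and 5.07 in the line, not well above background on any array, and 205, 173, 172 and 152 in the control. It was at least 7.70-fold lower, and the ratio of processed signals, in which a surrogate stands for the line, was -5.01 ± 0.22. In A2780CBNDXL the line was again not well above background, with 29.1, 6.33, 12.1 and 15.8, while the control gave 60.8, 42.9, 50.8 and 58.2 and was above background on 3 of 4 arrays. There CDH9 was at least 2.16-fold lower, but it did not pass the filter because of array 1. Without that array its log2 ratio was -2.19 and it was called.

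CDH12 was lower in A2780CBNDXL at both of its probes. At the brighter probe the signal was 28.6, 23.4, 21.2 and 23.4, above background on array 1 alone, against 224, 261, 207 and 222 in the control. The log2 ratio was -3.24 ± 0.21, and -3.32 without array 1. The other probe gave -3.28 ± 0.54 with a line channel not above background on any array, which is at least 4.70-fold lower. In A2780CBN the brighter probe gave 30.3, 39.1, 24.4 and 34.5 against 64.9, 53.0, 62.2 and 57.1, which do not overlap, with a log2 ratio of -0.90 ± 0.40 under the 2-fold limit. The other probe gave -0.92 ± 0.17, with a line channel not above background on any array and a control above it on 3. That is a lower bound of only 1.18-fold.

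**Figure D2:**
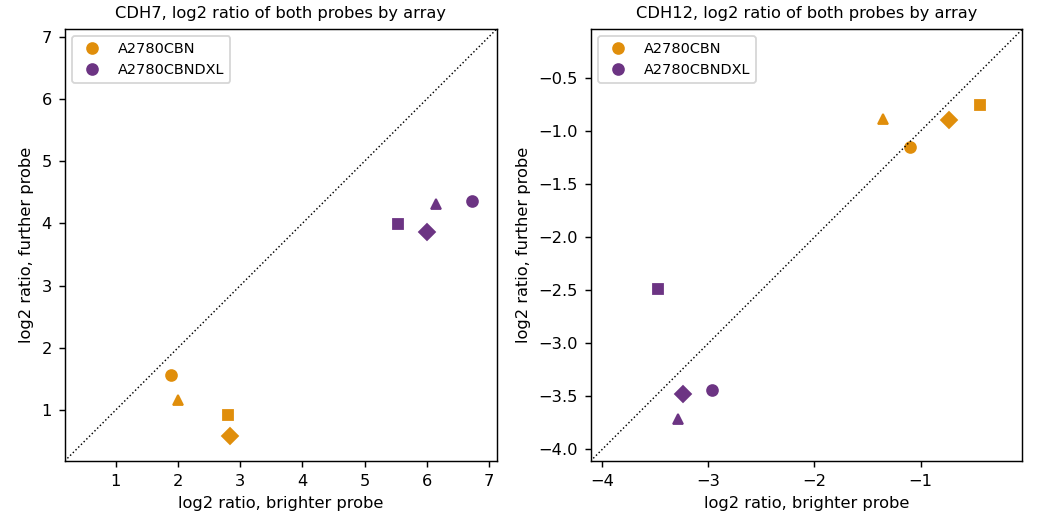
Log2 ratio of line over control on each array at the brighter probe (x axis) and at the other probe (y axis) of CDH7 and of CDH12, with marker shapes for arrays 1 to 4 as circle, square, triangle and diamond and a dotted line where both probes are equal. All points of CDH7 lie below the line, and those of CDH12 lie on both sides of it.

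The ratios above compare each line with its own control, so a difference between the lines can come from either channel. After scaling between arrays, the resistant line channels and the control channels were each compared between A2780CBNDXL and A2780CBN in 4 pairs of arrays matched by slide and labelling. Of the members, CDH3, CDH7 and CDH11 passed the 2-fold rule between the resistant lines, where 15.3% of 18391 genes did. CDH2 and CDH12 passed the filter there without being called. Between the controls CDH9 and CDH12 passed the rule, where 4.34% of 18177 genes did, each gene by its brightest probe. CDH2, CDH3 and CDH7 passed the filter there without being called. CDH2 could not be called in either comparison, because its outlier spot left 3 pairs.

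CDH7 was highest in A2780CBNDXL, with a mean log2 signal of 12.28, followed by A2780CBN at 7.68, the control of A2780CBNDXL at 6.17 and the control of A2780CBN at 5.30. The resistant lines differed by 4.60 ± 0.30 (SD of pairs), and the controls by 0.87 ± 0.78 with 1 pair of the opposite sign, or by 1.23 without array 1. At the other CDH7 probe the controls differed by 1.11 ± 0.40, which is 2.16-fold, higher beside A2780CBNDXL in all 4 pairs, so the size of this difference depended on the probe. CDH11 was at least 449-fold higher in A2780CBNDXL than in A2780CBN, and both controls were below background. CDH3 was higher in A2780CBN, at 6.74, than in A2780CBNDXL, at 5.05, a difference of -1.69 ± 0.25 in the direction A2780CBNDXL minus A2780CBN, while the controls differed by 0.32 ± 0.35.

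CDH2 stood at 13.29 in A2780CBNDXL, 11.71 in its control, 10.53 in the control of A2780CBN and 10.32 in A2780CBN. Over the 3 pairs that could be formed the lines differed by 2.94 ± 0.37 and the controls by 1.11 ± 0.64, higher in the control of A2780CBNDXL in each pair. Against the control of the other line's arrays the log2 ratio of CDH2 was -1.49 in A2780CBN and 2.83 in A2780CBNDXL. Since the control of A2780CBNDXL was higher, this exchange could only lower the first ratio and raise the second. It therefore does not test their direction. In A2780CBN the ratio was under 2-fold with its own control and over it with the other.

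CDH12 did not differ beyond the spread between the resistant lines, at 4.57 in A2780CBNDXL and 5.01 in A2780CBN, a difference of -0.43 ± 0.44. Its controls did, with 7.82 beside A2780CBNDXL and 5.91 beside A2780CBN, a difference of 1.91 ± 0.20. The line channel was above background on 4 arrays of A2780CBN but on only 1 of A2780CBNDXL, and at the other probe on none. The line values therefore cannot show that CDH12 is alike in both lines. Against the control of the other line's arrays the log2 ratio of CDH12 was -2.81 in A2780CBN and -1.34 in A2780CBNDXL. CDH9 was at 7.48 in the control of A2780CBN and at 5.71 in that of A2780CBNDXL, a difference of -1.76 ± 0.26. On all 8 arrays the resistant line channel of CDH9 stayed below the background limit, so the lines cannot be ordered by it. For CDH12 the direction was the same with either control, but only in A2780CBNDXL could the exchange have turned it. In A2780CBN the other control was higher, so the exchange could only lower a ratio that was already negative. Which line had the larger CDH12 ratio changed with the control used. CDH7 was at 1.51 and 6.98 against the other control, still higher in both lines. The CDH7 control of A2780CBN was the lower on average, so for A2780CBNDXL the exchange could only raise the mean ratio.

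**Figure D3:**
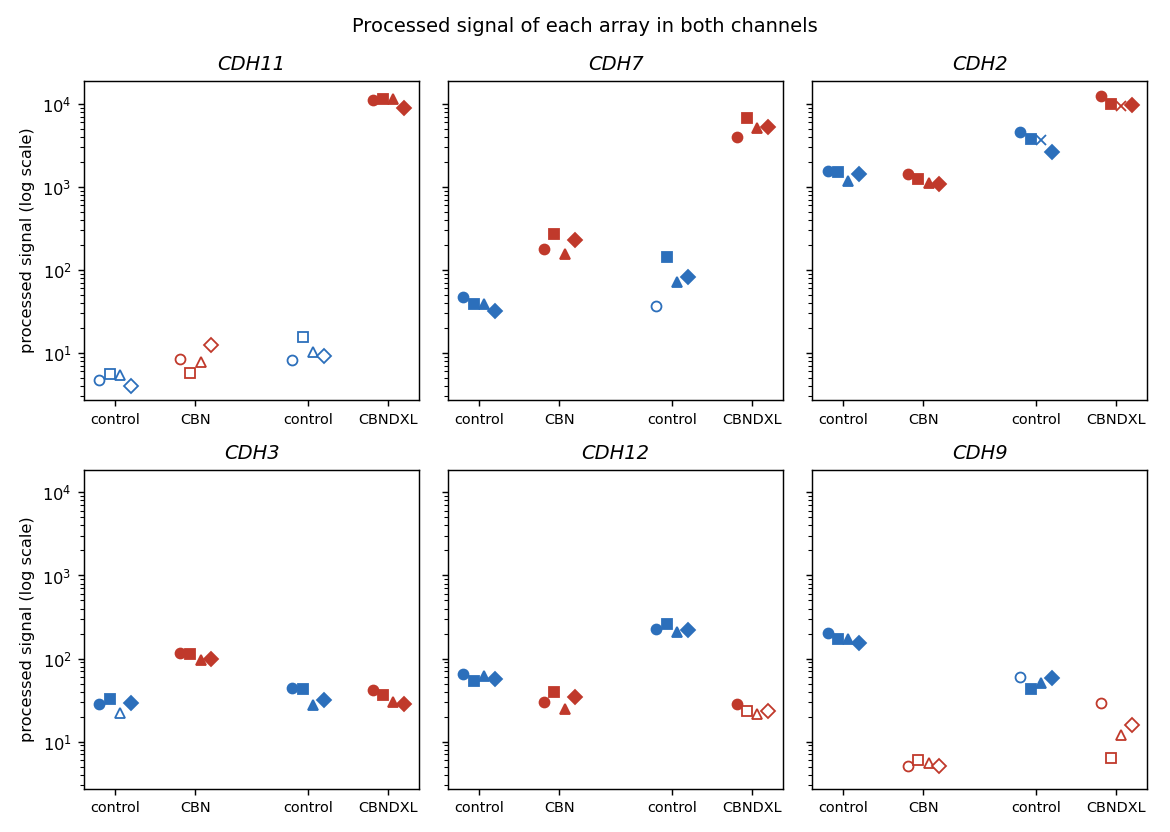
Processed signal on a log scale (y axis) of CDH11, CDH7, CDH2, CDH3, CDH12 and CDH9. CDH6, above background on 1 array only, is not drawn. Shown are the control and the resistant line of the A2780CBN arrays (left pair) and of the A2780CBNDXL arrays (right pair). The arrays are drawn as circle, square, triangle and diamond. Control channels are blue and lines red, open symbols are not well above background, and crosses are outlier spots, so that the higher CDH12 control beside A2780CBNDXL (207 to 261 against 53.0 to 64.9) can be seen beside line channels that overlap.

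Of the 13 other members of the cadherin family looked up, 3 passed the filter in A2780CBN. Among all genes that passed, 8% were higher, and so were all 3 of these. They were CDH23, which is part of the tip links of hair cells, with a log2 ratio of 3.16 ± 0.09, CDH10, a type II cadherin of brain, with 1.87 ± 0.16, and CDH15, the cadherin of muscle, with 1.20 ± 0.40. CDH22 and CDH24 were above background in A2780CBN but had only 3 usable arrays, so they did not pass. Their log2 ratios were -0.08 ± 0.25 and 0.07 ± 0.25. In A2780CBNDXL 4 passed and CDH23 alone was called, at 3.51 ± 0.09, beside 16.9% of all genes. CDH10 was at 0.26 ± 0.33. Of 7 desmosomal cadherins, which join keratin filaments across cells, 3 passed in A2780CBN and 2 were lower, DSG3 at least 4.65-fold and DSG2 at least 3.20-fold. In A2780CBNDXL 4 passed and 2 were lower, DSC1 at -2.78 ± 0.65 and DSG3 at -1.71 ± 0.39. Over all genes that passed, 4.55% were lower in A2780CBN and 9.2% in A2780CBNDXL. No desmosomal cadherin passed the rule upward in either line.

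Of 11 catenins, which tie cadherins to actin, and partners, 8 passed the filter in A2780CBN and CTNNA2 alone was called, beside 12.6% of all genes. In A2780CBNDXL 9 passed and 3 were called, beside 16.9%. CTNNB1, the β-catenin that binds the tail of classical cadherins, had log2 ratios of 0.22 ± 0.12 in A2780CBN and -0.03 ± 0.25 in A2780CBNDXL. CTNNA2, the α-catenin of neurons, was lower in both lines, at -3.07 ± 0.48 and -1.48 ± 0.09. In A2780CBNDXL JUP, plakoglobin, was higher at 1.06 ± 0.39 and ARVCF, a p120 relative, lower at -1.19 ± 0.47. The medians of the catenins and partners that passed were 0.14 and -0.03.

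Of 10 transcription factors known to regulate cadherin genes, none was called higher. KLF8 had a log2 ratio of 2.36 ± 0.50 in A2780CBNDXL, with mean signals of 129 in the line and 23.3 in the control. It did not pass the filter, since the line was above background on 3 of 4 arrays. In A2780CBN 2 of the 7 that passed were lower, ZEB2, a repressor of CDH1, at least 2.54-fold and TWIST2 at least 4.70-fold. In A2780CBNDXL 1 of 8 was lower, SNAI1, a further repressor of CDH1, at -2.45 ± 0.17. The shares called lower over all genes were 4.55% in A2780CBN and 9.2% in A2780CBNDXL. CDH1 itself was below background in the same RNA, as described above. TWIST1 had log2 ratios of 0.70 ± 0.47 and 0.92 ± 0.04, under the limit. GRHL2, an activator of CDH1, stayed below background on every array.

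Repressors of this group bind the letters CAGGTG, read on the other strand as CACCTG. RefSeq promoter windows of 300 bases (GRCh38.p14) were at hand for 5 of the 10 members, CDH2, CDH4, CDH7, CDH9 and CDH12, with 10 windows in all. The letters were found in 1 window, of CDH4, and in 20.6% of all 35116 windows.

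Among 12 genes of cadherin processing, shedding and turnover, 11 passed in each line. Over all genes that passed, 12.6% were called in A2780CBN and 16.9% in A2780CBNDXL. PTPRK, a receptor phosphatase that acts at cell contacts, was higher in both, at 3.18 ± 0.51 in A2780CBN and 2.54 ± 0.39 in A2780CBNDXL, and PTPRF was lower in A2780CBNDXL at -1.14 ± 0.50. The protease ADAM10, which sheds cadherins, was at 0.08 ± 0.21 and -0.23 ± 0.40. Of 5 nectins and afadin, the other adhesion system of adherens junctions, PVRL3 was higher in A2780CBN past the 2-fold rule, with a lower bound of 1.98-fold, and none was called in A2780CBNDXL. ADIPOR1 and ADIPOR2, receptors that share the ligand of CDH13, were measured, not called in either line, and ADIPOQ, the ligand, was not well above background.

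Of the 9 markers of ovarian and Müllerian epithelium looked up for the identity of the cells, 6 were measured. KRT7, MUC16 and WT1 were not well above background on any array, and PAX8 was dim, with mean signals of 41.3 to 55.7. EPCAM, an epithelial adhesion protein, was higher in both lines, at 2.07 ± 0.30 and 1.67 ± 0.24. KRT18 and VIM were higher in A2780CBN, at 1.05 ± 0.16 and 1.08 ± 0.67. No epithelial marker was called lower. The shares called higher over all genes were 8% in A2780CBN and 7.7% in A2780CBNDXL.

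**Figure D4:**
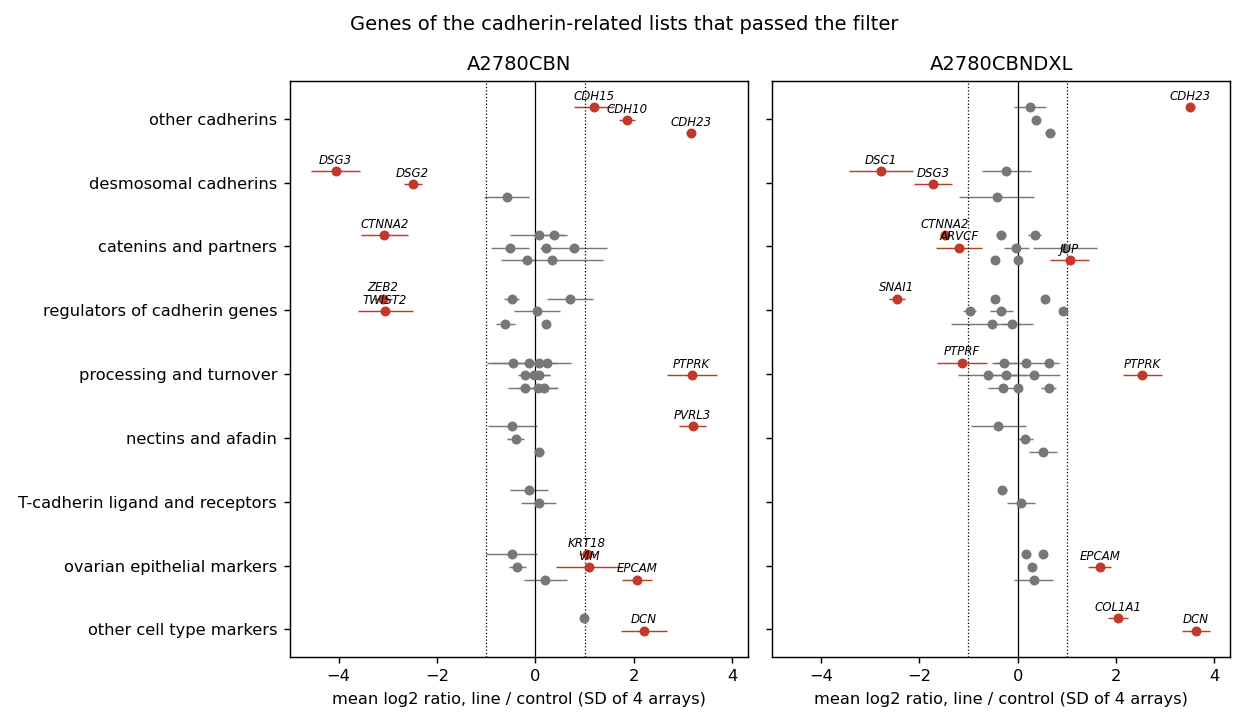
Mean log2 ratio of line over control with the SD of 4 arrays (x axis) for each gene of the cadherin-related lists (y axis) that passed the filter, in A2780CBN (left) and A2780CBNDXL (right), with genes past the 2-fold rule in red and named. The called desmosomal cadherins and cadherin regulators lie below 0 in both panels, and CDH23, PTPRK, EPCAM and DCN lie above 1 in both.

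The genes whose channel values were most like those of CDH7 over all 16 channels, by root mean square distance after centring among 17362 genes, were PDGFC at 0.46, LRRC17 at 0.61 and KCNMB4 at 0.65 log2 units. PDGFC had log2 ratios of 3.04 ± 0.35 in A2780CBN and 5.76 ± 0.43 in A2780CBNDXL. The genes most like CDH11 were FAM155A at 0.80, CHODL at 1.11 and EBF1 at 1.33. FAM155A was not well above background in A2780CBN and had a log2 ratio of 7.92 ± 0.50 in A2780CBNDXL.

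The 5 nearest genes on each side of the called members on NCBI36 were looked at for values of the same kind. Over all genes that passed the filter, 12.6% were called in A2780CBN and 16.9% in A2780CBNDXL. Around CDH3 9 of 10 genes passed the filter in A2780CBN and none was called, and in A2780CBNDXL 8 passed and 1 was lower. Around CDH7 the nearest genes lay 624 to 3961 kb away. There 3 passed in A2780CBN, with 1 higher and 1 lower, and 4 in A2780CBNDXL, with 2 higher and 1 lower. The nearest measured gene at higher coordinates, DSEL, a dermatan sulfate epimerase-like gene, was at least 15.2-fold lower in A2780CBN, opposite to CDH7, and higher in A2780CBNDXL, at 3.05 ± 0.11. DOK6, an adaptor protein, was higher in A2780CBN at 1.91 ± 0.65 and lower in A2780CBNDXL at -2.18 ± 0.47, and SERPINB8 was higher in A2780CBNDXL at 1.05 ± 0.18. Around CDH11, whose nearest gene lies 1457 kb away, 6 of 10 genes passed the filter in each line, none was called in A2780CBNDXL, and SETD6 was lower in A2780CBN at -1.16 ± 0.31. Around CDH12 in A2780CBNDXL 4 passed and none was called, and in A2780CBN 5 passed, with CDH10 and BASP1 higher and CDH9 lower. Around CDH9 7 passed in each line, with CDH10 higher and PDZD2 lower in A2780CBN, the latter at -1.54 ± 0.32, and with PDZD2, at -2.91 ± 0.18, and CDH12 lower in A2780CBNDXL.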

How the data were processed

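Expression was measured in 1 pooled RNA sample per line on 8 two-colour arrays. The deposited files come from Agilent Feature Extraction (10.7.1.1 on slide 1, 10.7.3.1 on slide 2), and in them the processed intensity of each channel is background-subtracted and dye-normalized, with a surrogate near background. The submitters' processing notes also name Partek. Raw mean, background and background-subtracted intensities deposited beside it served for alternatives. The dye entries of the reverse arrays repeat those of the forward arrays, and these arrays were turned over as their name states, after which both correlated at 0.58 to 0.74. Outlier and control spots were left out, spots of a probe averaged, and log2 ratios averaged first within a dye orientation and then between orientations. Lower bounds and comparisons between arrays used Aquantile scaling. The number of arrays limits the precision. Alternatives were normexp with offset 50 and loess, centred background-subtracted signals, arrays, slides or dye directions left out, other filters and fold limits, limma, and the 3-way ANOVA of the methods, which has no array term. Kept outliers, the other line's control and a filter of 3 arrays were added after seeing the data. The members, gene lists and naming rule (all members, list genes past the 2-fold rule, neighbours of CDH7 and CDH11, and the 3 genes most like each of these) were chosen with earlier results of these data known, and other genes named were chosen after their values were seen. Steps were tested on simulated data. R 4.3.3, limma 3.58.1, data.table (1.17.8), Python 3.11.15, numpy 2.4.6, pandas 2.3.3 and matplotlib 3.10.9 were used.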

Additional observations from a re-analysis of the deposited data

Results flagged for a closer look

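CDH2 is flagged because its log2 ratio over control differed between the lines. In A2780CBN it was -0.21, below 0 on all 4 arrays but only 1.15-fold, with overlapping ranges of line and control. In A2780CBNDXL it was 1.55, above 0 on the 3 arrays with a usable spot. Against the control of the other line's arrays the ratios were -1.49 and 2.83. The control of A2780CBNDXL was the higher in CDH2, so these values do not test the directions. The difference between the lines was not tested, since each line is 1 sample.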

How the results depend on the processing

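Line and control were paired on each array, but no analysis paired across cultures was possible. The replicate numbers in the labels mark technical arrays of 1 pooled sample per line, and the pairs of arrays matched by slide and labelling give only the error of hybridization. Of the 3 members called in A2780CBN, none passed after normexp background correction with an offset of 50 and loess (0 calls), where CDH9 was at -0.66, CDH7 at 0.60 and CDH3 at 0.39, and 1 passed (CDH7) with both channels above background on all arrays. Of the 3 called in A2780CBNDXL, 0 passed with both channels above background, and 5 were called on the reverse labelled arrays alone and with a filter of at least 3 arrays, which added CDH2 and CDH9. Normexp there left CDH7 at 4.04 and CDH11 at 5.41, and took CDH12 to -0.88, under the limit. Leaving out 1 array at a time gave 3 to 3 calls in A2780CBN and 3 to 4 in A2780CBNDXL, where CDH9 was added without array 1 and CDH2 without array 3. Limma and the ANOVA called the same 3 members in each line. No ratio or channel difference of a member changed direction while it was past the 2-fold rule. Signal over background, with medians of 2.28 to 3.52 over all spots of an array, limits CDH3, CDH9 and CDH12, and among the measured members CDH2, CDH3, CDH9 and CDH11 rest on 1 probe each.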

Other observations

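Several cadherin genes lie near each other on chromosome 5 and had different values in the same RNA. In A2780CBN CDH10 was higher, with mean signals of 1349 in the line and 374 in the control, 2394 kb from CDH9, which was lower, and 2736 kb from CDH12, which was at -0.90 ± 0.40. In A2780CBNDXL CDH10 was at 0.26 ± 0.33. CDH18, the next gene on the other side of CDH12, was above background in A2780CBNDXL on 2 of 4 arrays, with a log2 ratio of 2.28 ± 0.88 that did not pass the filter, and not in A2780CBN. CDH6, 4442 kb from CDH9, was above background in 1 channel of 1 array.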
